A study of Mus musculus with 31 samples.

Results

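Astrocytes at rest express a set of genes by which they clear transmitter, move water and couple to each other, and the RNA of 9 such homeostatic genes was followed in the hippocampus of a mouse model of T cell-driven limbic encephalitis. The members were Aqp4, Slc1a2, Slc1a3, Gja1, Gjb6, Glul, Aldh1l1, Aldoc and Sox9, chosen by symbol, and all 9 were found among the 15648 genes of the count table. They did not move as a block. At 5 days after delivery of the antigen, 5 of the 9 were lower (Glul, Gja1, Slc1a2, Gjb6 and Aldoc), with Glul and Gja1 at 51.3% and 51.8% of the mean of the control mice, and 15.1% of all genes were lower by the same limit, a false discovery rate (FDR) of at most 0.05. Aqp4 and Aldh1l1 in the same libraries stood above every control mouse, as did 21% of all genes, but neither passed the test (edgeR FDR 0.069 and 0.35). Slc1a3 and Sox9 overlapped with the controls. At 28 days 4 of the 9 were higher (Sox9, Slc1a3, Aqp4 and Gja1), against 24.5% of all genes, and none passed as lower.

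Astrocytes take up the glutamate that neurons release through the transporters EAAT2 (Slc1a2) and EAAT1 (Slc1a3), and glutamine synthetase (Glul) turns it into glutamine that is returned to neurons. The connexins 43 (Gja1) and 30 (Gjb6) form the gap junctions that join astrocytes into a network, through which potassium, glutamate and metabolites spread, and aquaporin-4 (Aqp4) is the water channel of their endfeet on blood vessels. Loss or misplacement of these proteins is known from sclerotic hippocampi in temporal lobe epilepsy, while Sox9, a transcription factor of the glial lineage, and the folate enzyme gene Aldh1l1 and aldolase C gene Aldoc serve as markers of astrocytes.

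The left hippocampi of 31 adult OT-I/Rag1-/- mice were sequenced in bulk, 1 library per mouse. Mice of all 8 groups carried the transgenic T cell receptor of the OT-I line, which recognizes a peptide of ovalbumin (OVA), and lacked Rag1 (the labels write Rag-/-), so they made no T or B cell receptors of their own. The rAAV-OVA group had received rAAV-hSyn-OVA-mCherry and the rAAV-control group rAAV-hSyn-mCherry, on both sides of the dorsal CA1 region, with ketoprofen for analgesia in either case. The hSyn promoter is used to drive expression in neurons, and which cells held OVA was not measured here. Each group held 4 mice at 2, 5, 8 and 28 days, except for 3 rAAV-control mice at 8 days. Sex, and any age beyond adult, were not used here. Of the 31 mice, 23 belonged to batch 1 and 8 to batch 2 of the labels. The mice at 5 and 8 days were all from batch 1, and each group at 2 and 28 days had 2 mice of either batch.

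Expression is given as CPM, that is, counts scaled to 1000000 per library after TMM normalization, and group values are mean ± SD over mice. Log2FC, its standard error (SE) and its FDR come from edgeR's quasi-likelihood test over all 15648 genes. The model held 2 surrogate variables, estimated to stand for differences between libraries beyond the groups. The first nevertheless differed by treatment at 5 days, from −0.253 to −0.0763 in rAAV-OVA mice and from −0.0158 to 0.127 in rAAV-control mice. The adjustment was thus not independent of the groups. A Log2FC can therefore differ from the ratio of the means. A DEG had to pass both an FDR limit of 0.05 and an absolute Log2FC limit of 0.66, and "lower" or "higher" without DEG means that the FDR limit alone was met. A p-value here weighs a difference against the variation between mice, with dispersions estimated over the mice of all groups. Bulk tissue gives 1 sum over all cells, so fewer astrocytes and less RNA per astrocyte cannot be told apart, and every CPM is a share of a library to which other cells also contribute.

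Libraries held between 19046977 and 57407902 counts, with a median of 27024978, and the members were covered by 449 (Sox9, the lowest mouse) to 227746 counts (Slc1a2, the highest), and all 9 were detected in every mouse. A few libraries stood apart from their group. The rAAV-OVA mouse D844 at 28 days had a summed level of 10.8 CPM over 3 tested T cell markers, against 121.6 to 251.7 CPM in the other 3 mice. The rAAV-control mouse D720 at 8 days had 24.2 CPM of these markers, against 2.72 and 2.86 CPM in the other 2, and a summed level of 3604 CPM over 18 reactive astrocyte markers, against 562 and 1002 CPM. The rAAV-control mouse D743 at 2 days reached 6517 CPM over the reactive markers. Results were computed with and without these 3 mice: without them 2 members were DEGs at 5 days, as with them, and 1 (Slc1a3) at 28 days.

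In the 15 rAAV-control mice, the members differed widely in level. Per kilobase of the longest coding transcript, Glul was highest, with a median of 646 CPM per kb (406 to 825). Slc1a2 followed with 352 (239 to 404), Aldoc with 319 (193 to 396) and Slc1a3 with 209.9 CPM per kb (168 to 277). Gja1 had a median of 91.9, Aqp4 of 51.5 and Gjb6 of 26.5 CPM per kb. Aldh1l1 with 15.5 and Sox9 with 8.33 CPM per kb were the least abundant. The ranges of Glul and Gja1 over the 15 mice did not overlap, whereas those of neighbours such as Slc1a2 and Aldoc did. The plot of all 9 members by mouse shows these levels in each library.

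**Figure D1:**
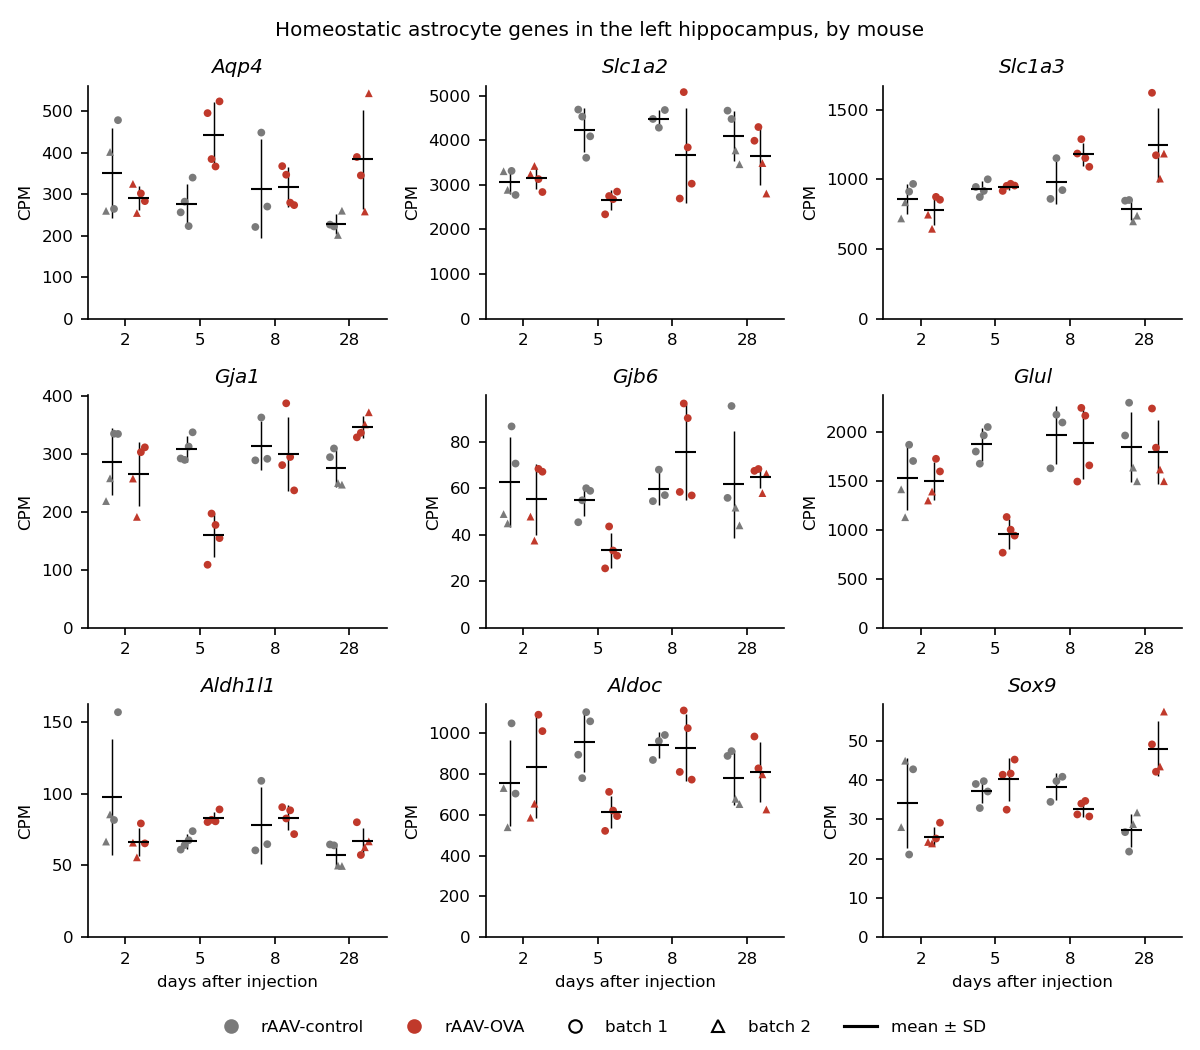
CPM of each member (y axis, from 0) in every mouse by days after injection (x axis), for rAAV-control (grey) and rAAV-OVA (red), with circles for batch 1, triangles for batch 2 and black lines for mean ± SD. At 5 days Gja1, Glul, Slc1a2, Gjb6 and Aldoc lie wholly below the rAAV-control mice, Aqp4 and Aldh1l1 wholly above.

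Promoter windows were looked up for the members in RefSeq (GRCm38.p6, a build that differs from that of the counts). A window of 250 bases before the start was read for 7 of the 9 members, and those of Sox9 and Aqp4 were not read. The windows of 3 members are shown, chosen by their values at 5 days, Gja1 and Glul as the members with the largest decrease and Slc1a3 as a transporter that did not pass the test. Each is written 5′ to 3′ on the strand of the gene, and capitals mark matches to TTGGC, a motif of NFI factors, on either strand (GCCAA on the other), and to TTCNNNGAA, a motif of STAT factors.
Gja1, chr10:56377050-56377299, + strand: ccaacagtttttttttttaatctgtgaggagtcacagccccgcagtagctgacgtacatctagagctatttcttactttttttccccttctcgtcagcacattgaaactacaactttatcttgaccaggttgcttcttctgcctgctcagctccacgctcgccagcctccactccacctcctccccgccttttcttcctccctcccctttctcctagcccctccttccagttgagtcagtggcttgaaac
Glul, chr1:153899679-153899928, + strand: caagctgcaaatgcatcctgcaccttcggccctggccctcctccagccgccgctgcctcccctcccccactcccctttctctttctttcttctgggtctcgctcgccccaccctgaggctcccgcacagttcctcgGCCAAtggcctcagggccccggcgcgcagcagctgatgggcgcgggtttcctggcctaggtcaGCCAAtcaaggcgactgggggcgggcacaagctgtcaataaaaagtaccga
Slc1a3, chr15:8710808-8711057, - strand: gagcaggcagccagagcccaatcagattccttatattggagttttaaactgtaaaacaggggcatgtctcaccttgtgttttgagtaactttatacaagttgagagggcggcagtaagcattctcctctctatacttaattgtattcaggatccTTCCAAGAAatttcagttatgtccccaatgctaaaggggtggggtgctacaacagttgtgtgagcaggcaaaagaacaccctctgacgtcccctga
The window of Glul held TTGGC at 2 positions, from −114 to −110 and from −51 to −47 relative to the start, both on the opposite strand. This motif occurred in 41.5% of 32851 promoter windows of the same length. The window of Slc1a3 held TTCNNNGAA as TTCCAAGAA from −96 to −88, a motif found in 7.02% of the windows. It also held the SOX core ACAAT on the opposite strand from −112 to −108, found in 27.7% of the windows. The window of Gja1 held none of these letters, nor the NF-κB motif, GGGA and TTTCC with any base between them (0.356% of the windows), nor the RBPJ core TGGGAA (21.6%), and both strands were searched. Among the windows not shown, TTGGC also occurred in those of Slc1a2 and Aldoc, and TTCNNNGAA occurred at 2 positions in 1 of the 2 windows of Aldoc, a gene that was lower at 5 days. The letters of the STAT, NF-κB and RBPJ motifs can share bases.

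At 2 days, the question is whether the members already differed before the later time points. No member passed the FDR limit, nor did any of the 15648 genes (0% called), while 9.61% of the genes had an unadjusted p under 0.05. The groups overlapped for all 9 members, where 4.15% of the genes had groups apart. The largest Log2FC among the members was that of Aldh1l1, −0.56 (SE 0.19, edgeR FDR 0.34), with 66.6 ± 9.7 CPM in the rAAV-OVA group and 97.8 ± 40.3 CPM in rAAV-control mice. For Aldh1l1 the highest control mouse was D743 with 157 CPM, where the other 3 control mice had 66.7, 81.8 and 85.7 CPM. Within each batch, with 2 mice per group, its rAAV-OVA mice lay below the control mice. The log2 ratios of the means were −0.72 in batch 1 and −0.33 in batch 2. Sox9 had a Log2FC of −0.39 (SE 0.17, edgeR FDR 0.47), and here too D743 (42.8 CPM) and BEC-R385 (44.9 CPM) stood above the other 2 control mice (21 and 28 CPM). The median Log2FC of the members was −0.19, against 0.01 over all genes. The 18 reactive astrocyte markers summed to 1719 to 1987 CPM in the rAAV-OVA group and 2019.7 to 6517 CPM in the rAAV-control group. Of these 18 genes 17 had a negative Log2FC (median −0.91) and 0 passed the FDR limit, and their part in the members' values was not tested.

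At 5 days, 2 of the 9 members were DEGs, Gja1 and Glul, both decreased, where 15% of all genes were DEGs and 4.58% were decreased DEGs. By the FDR limit alone, 5 of 9 members were lower and 0 higher, against 15.1% and 17.3% of all genes. For 7 of 9 members the groups were fully apart, against 40.6% of all genes, and 5 of them lay below and 2 above, against 19.6% and 21% of all genes. The median Log2FC was −0.56 for the members and −0.004 over all genes.

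Among the genes of glutamate handling, Glul (ENSMUSG00000026473.17) fell most. The rAAV-OVA mice had 769, 944, 1005 and 1135 CPM and the rAAV-control mice 1680.1, 1804, 1969.5 and 2055 CPM. The highest rAAV-OVA mouse thus stayed well under the lowest control mouse. The Log2FC of Glul was −0.95 (SE 0.16, edgeR FDR 6.4e-05). Slc1a2 (ENSMUSG00000005089.16), the transporter that carries most glutamate uptake in the forebrain, had 2338, 2678, 2748 and 2847 CPM in the rAAV-OVA group and 3606, 4086, 4528 and 4685 CPM in rAAV-control mice. Its groups were again apart, and its Log2FC of −0.64 (SE 0.16, edgeR FDR 0.0042) lay just under the limit for a DEG. Slc1a3 (ENSMUSG00000005360.15), the other astrocyte transporter, had 917, 954, 956 and 968 CPM in the rAAV-OVA group and 874, 917, 946 and 1001 CPM in rAAV-control mice. All 4 rAAV-OVA values of Slc1a3 fell inside the control range. Its Log2FC was −0.04 (SE 0.10, 95% interval −0.24 to 0.17, edgeR FDR 0.81).

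Of the 2 connexins, Gja1 (ENSMUSG00000050953.11) had 109, 155, 178 and 197 CPM in the rAAV-OVA group and 289.9, 292, 313 and 338 CPM in rAAV-control mice. The groups were far apart, and the Log2FC was −0.87 (SE 0.15, edgeR FDR 8.6e-05). Gjb6 (ENSMUSG00000040055.10) had 25.6, 31, 33.2 and 43.6 CPM in the rAAV-OVA group and 45.4, 54.8, 58.9 and 60.0 CPM in rAAV-control mice. The highest rAAV-OVA mouse, D726, was close to the lowest control mouse, D723. Gjb6 had a Log2FC of −0.63 (SE 0.19, edgeR FDR 0.013), and without D725 or D786 its FDR was 0.062 or 0.052.

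The water channel gene Aqp4 (ENSMUSG00000024411.12) moved the other way. It had 367, 384.7, 495 and 524 CPM in the rAAV-OVA group and 223, 256, 282 and 340.0 CPM in rAAV-control mice. Every rAAV-OVA mouse was above every control mouse, yet the Log2FC of 0.50 (SE 0.21, edgeR FDR 0.069) missed the FDR limit with the surrogate variables in the model. Without them Aqp4 had a Log2FC of 0.68 (edgeR FDR 0.019), which makes it an increased DEG. Without the 3 libraries that stood apart, and with the surrogate variables, the Log2FC was 0.59 (edgeR FDR 0.0014), and Aqp4 met the FDR limit in 9 of 20 alternatives.

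Aldoc (ENSMUSG00000017390.16), which encodes a glycolytic enzyme, had 521, 593, 620.4 and 712 CPM in the rAAV-OVA group and 779, 894, 1058 and 1103 CPM in rAAV-control mice. The groups did not overlap, with a Log2FC of −0.56 (SE 0.14, edgeR FDR 0.0036). Aldh1l1 (ENSMUSG00000030088.16), the enzyme gene most used to mark astrocytes as a class, was between 80.3 and 89.1 CPM in the rAAV-OVA group and between 61.1 and 74.0 CPM in rAAV-control mice. Although it was higher in every rAAV-OVA mouse, its Log2FC of 0.25 (SE 0.20, edgeR FDR 0.35) did not pass, and without the 3 libraries that stood apart it passed the FDR limit with 0.35 (FDR 0.020). Sox9 (ENSMUSG00000000567.6) had 32.5, 41.4, 41.7 and 45.2 CPM in the rAAV-OVA group and 32.9, 37.1, 39.0 and 39.7 CPM in rAAV-control mice, with a Log2FC of 0.05 (SE 0.17, edgeR FDR 0.85).

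Gja1 and Glul were decreased DEGs in 20 of 20 alternatives, with Log2FC from −0.96 to −0.73 for Gja1 and from −1.01 to −0.82 for Glul. Slc1a2 and Aldoc met the FDR limit in 20 of 20. Without surrogate variables 5 members were DEGs at 5 days, with Slc1a2 and Gjb6 as decreased and Aqp4 as increased DEGs beside Gja1 and Glul. Scaling by total counts alone moved the median of all genes to a Log2FC of 0.11 and the DEGs of all genes from 1625 increased and 717 decreased to 1918 and 443. With that scaling the same 5 members were lower by the FDR limit (Gjb6 with a Log2FC of −0.52 and an edgeR FDR of 0.033, the highest of the 5), and Aqp4 was higher (0.61, FDR 0.034).

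**Figure D2:**
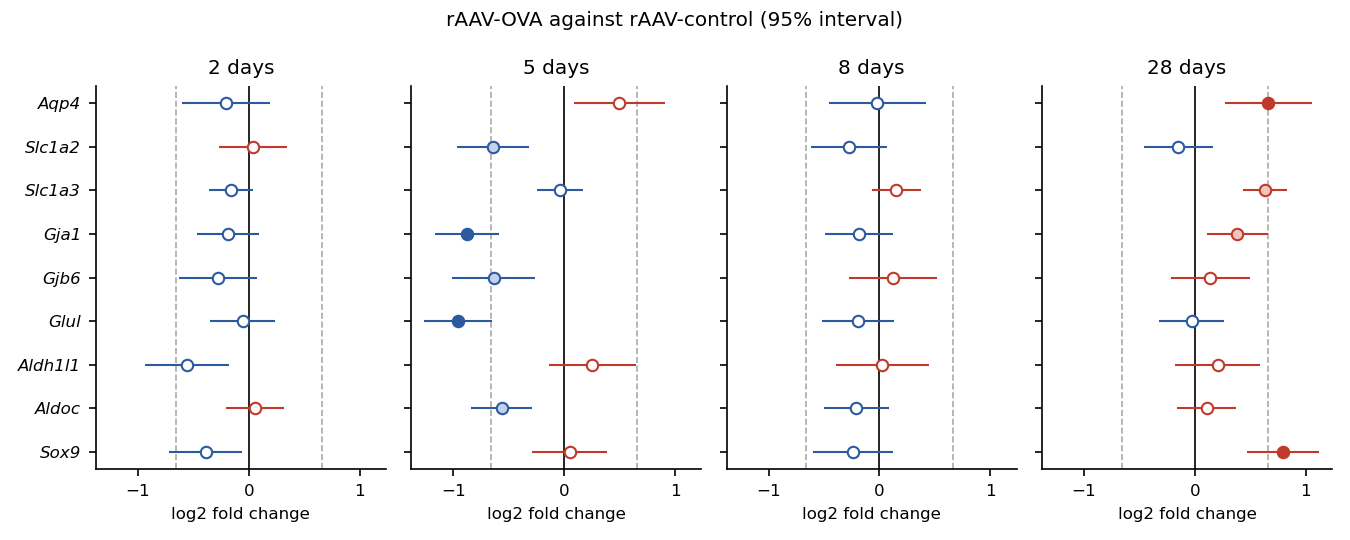
Log2FC of each member (x axis, with its 95% interval) for rAAV-OVA against rAAV-control at 2, 5, 8 and 28 days. Filled points are DEGs, pale points meet the FDR limit alone, open points do not, and dashed lines mark the Log2FC limits of −0.66 and 0.66. Gja1 and Glul are filled at 5 days, and Aqp4 and Sox9 at 28 days.

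At 8 days, no member passed the FDR limit, where 13.8% of all genes did and 8.03% were DEGs. The groups overlapped for all 9 members, while they did not for 26.4% of the genes. Glul stood at 1497, 1663, 2171 and 2251 CPM in the rAAV-OVA group and at 1632, 2102 and 2182 CPM in the 3 rAAV-control mice, a Log2FC of −0.19 (SE 0.17, edgeR FDR 0.44). Gja1 stood at 237, 281, 295 and 388 CPM against 289, 292 and 363 CPM, a Log2FC of −0.18 (SE 0.16, edgeR FDR 0.44). Both groups thus covered much the same range for the 2 genes that had been lowest at 5 days. The lowest FDR was that of Slc1a2, 0.29, with a Log2FC of −0.28 (SE 0.18). Its rAAV-OVA mice spread from 2692 to 5077 CPM, around control mice between 4280.3 and 4675 CPM, and without the highest of them, D701, the Log2FC was −0.54 (edgeR FDR 0.013).

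The rAAV-control mouse D720, whose T cell and reactive markers were raised, also held the highest Aqp4 (449 CPM) and Aldh1l1 (109 CPM) of the 7 mice at 8 days. With D720, D743 and D844 left out, 2 members met the FDR limit at 8 days, Slc1a3 with a Log2FC of 0.40 (edgeR FDR 0.013) and Aldh1l1 with 0.41 (edgeR FDR 0.028). The 2 remaining control mice had 860.2 and 923 CPM of Slc1a3, under the 1091 to 1289 CPM of the 4 rAAV-OVA mice. Without D720 alone, the Log2FC was 0.29 for Slc1a3 (edgeR FDR 0.13) and 0.37 for Aldh1l1 (edgeR FDR 0.26), and neither passed.

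At 28 days, 2 of the 9 members were DEGs, Aqp4 and Sox9, both increased, where 21.4% of all genes were DEGs and 14.9% were increased DEGs. By the FDR limit alone 4 of 9 members were higher and 0 lower, against 24.5% and 21.4% of all genes. The rAAV-OVA mice were wholly above for 3 members (Sox9, Slc1a3 and Gja1), against 15% of all genes. The median Log2FC was 0.20 for the members and 0.005 over all genes.

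Sox9, which in the adult brain is largely restricted to astrocytes outside of neurogenic regions, had 42.1, 43.5, 49.1 and 57.5 CPM in the rAAV-OVA group and 21.8, 26.7, 28.8 and 31.8 CPM in rAAV-control mice. The groups did not overlap in either batch, with log2 ratios of the means of 0.91 in batch 1 and 0.74 in batch 2. The Log2FC of Sox9 was 0.79 (SE 0.17, edgeR FDR 0.00051), and it remained a DEG in 8 of 8 fits that left out 1 mouse. The 3 libraries that stood apart bear on it: without them the Log2FC was 0.64 (edgeR FDR 0.005), under the limit for a DEG.

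Slc1a3 had 1006, 1173, 1185 and 1622 CPM in the rAAV-OVA group and 699, 739.6, 847 and 852 CPM in rAAV-control mice. It was higher in both batches, with a Log2FC of 0.64 (SE 0.10, edgeR FDR 2.8e-05), just under the limit for a DEG, and reached 0.82 without the 3 libraries that stood apart. Slc1a2 in the same mice had 2804, 3486, 3987 and 4294 CPM in the rAAV-OVA group and 3460.2, 3770.2, 4474 and 4662 CPM in the rAAV-control group, and these overlapped. Its Log2FC was −0.15 (SE 0.16, 95% interval −0.46 to 0.16, edgeR FDR 0.45). Glul overlapped as well, with 1501 to 2245 CPM against 1500.2 to 2304 CPM and a Log2FC of −0.03 (SE 0.15, edgeR FDR 0.90). Of the 3 genes of glutamate handling, 1 was thus higher at 28 days, where 2 had been lower at 5 days.

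Aqp4 had 258, 345, 389.7 and 543 CPM in the rAAV-OVA group and 202, 222, 227 and 260.1 CPM in rAAV-control mice. The groups overlapped through D844, the rAAV-OVA mouse with few T cell transcripts, and the remaining 3 rAAV-OVA mice were above every control. The Log2FC of Aqp4 was 0.66 (SE 0.20, edgeR FDR 0.0092). Its call depended on single mice. The FDR was 0.057 without D661, 0.085 without D845 and 0.11 without D844, with Log2FC of 0.55, 0.55 and 0.46. Without D843 or D706 the Log2FC of Aqp4 was 0.59 or 0.65, under the limit for a DEG.

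Gja1, the gene with the second largest decrease at 5 days, had 329, 337, 351 and 372 CPM in the rAAV-OVA group and 247, 250, 295 and 309.7 CPM in rAAV-control mice at 28 days. The groups were close but did not overlap, in either batch. Its Log2FC was 0.38 (SE 0.14, edgeR FDR 0.030), a weak result: the FDR limit was missed without D661, D843, D851, D844 or D845, the last with a Log2FC of 0.17 (FDR 0.52), and also without surrogate variables (FDR 0.12). Within batches the log2 ratio of the means of Gja1 was 0.14 in batch 1 and 0.54 in batch 2. The other connexin, Gjb6, had 57.9 to 68.2 CPM in the rAAV-OVA group and 44.0 to 95.3 CPM in rAAV-control mice, a Log2FC of 0.14 (SE 0.18, edgeR FDR 0.55). Aldh1l1 and Aldoc also overlapped, with Log2FC of 0.20 and 0.11, and without the 3 libraries that stood apart Aldoc met the FDR limit with 0.34 (edgeR FDR 0.049).

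With the batch label added to the model beside the surrogate variables, Sox9 at 28 days had a Log2FC of 0.79 (edgeR FDR 0.00047) and remained a DEG. Aqp4 had a Log2FC of 0.66 before and after, but with the label it came to lie just under the limit (edgeR FDR 0.011) and was no longer a DEG. Slc1a3 had 0.64 (edgeR FDR 8.6e-06), again under the limit.

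Whether the response itself differed between days was tested as an interaction in the same model. Between 28 and 5 days, 5 of 9 members were DEGs, all toward higher values at 28 days, where 6.51% of all genes were DEGs and 4.19% in this direction. The difference in Log2FC was 1.26 for Gja1 (SE 0.20, edgeR FDR 0.00059), 0.93 for Glul (SE 0.21, edgeR FDR 0.0079) and 0.68 for Slc1a3 (SE 0.14, edgeR FDR 0.0047). Sox9 and Aldoc followed with 0.74 (SE 0.23, edgeR FDR 0.044) and 0.67 (SE 0.19, edgeR FDR 0.028). Gjb6 had a difference of 0.77 (SE 0.26) and narrowly missed the FDR limit (edgeR FDR 0.054). Gja1 and Glul fell at 5 days and had left that state at 28 days, whereas Slc1a3 and Sox9 had Log2FC near 0 at 5 days and rose at 28 days. For Aqp4 the difference was 0.16 (SE 0.28, 95% interval −0.39 to 0.72, edgeR FDR 0.74).

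Gja1 was a DEG in 27 of 28 alternatives of this comparison and Glul in 26. Slc1a3 met the FDR limit in 26 and was a DEG in 16, Aldoc in 15 and 10, and Sox9 in 10 and 9. Among 16 fits without 1 mouse Aldoc met the FDR limit in 7 and Sox9 in 4, so both calls depended on which mice were included. Mice of batch 1 alone, 2 per group at 28 days, gave differences of 1.1 for Gja1 (FDR 0.10) and 0.90 for Glul (FDR 0.16), and 0 members passed. No mouse at 5 days was in batch 2, so this difference could not be computed within batch 2.

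**Figure D3:**
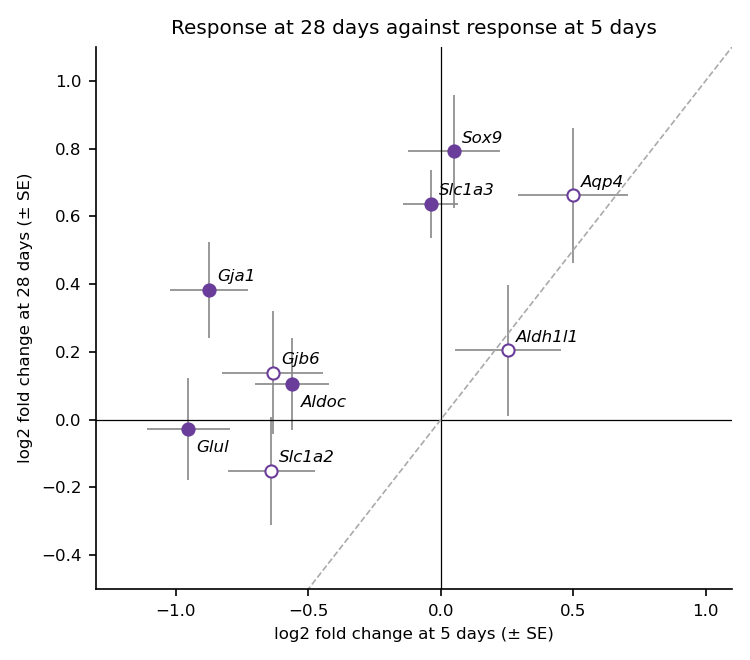
Log2FC at 28 days (y axis, ± SE) against Log2FC at 5 days (x axis, ± SE) for the 9 members, filled where the difference between both days met the FDR limit. The dashed line marks equal values. Gja1 lies farthest from it, with −0.87 at 5 days and 0.38 at 28 days, while Aqp4 lies near it with 0.50 and 0.66.

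Between 8 and 5 days 0 members passed, where 0.211% of all genes were DEGs and 8.28% had an unadjusted p under 0.05. Glul had a difference of 0.76 (SE 0.23, edgeR FDR 0.22), Gjb6 of 0.76 (SE 0.28, edgeR FDR 0.41) and Gja1 of 0.69 (SE 0.21, edgeR FDR 0.24), each toward higher values at 8 days, so the return from the 5-day level was not shown by this test. Between 28 and 8 days 0 members passed, where 0.0767% of the genes were DEGs and 21.4% had an unadjusted p under 0.05. The largest difference among the members was that of Sox9, 1.03 (SE 0.25, edgeR FDR 0.078). DESeq2's Wald test gave Sox9 an FDR of 0.012 for the same difference. These 3 comparisons share mice and are not independent of each other.

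In the rAAV-control mice alone, 0 members were DEGs at 5, 8 or 28 days against 2 days, where 1.60%, 0.300% and 2.63% of the genes were DEGs and 16.9%, 12.7% and 12.1% had an unadjusted p under 0.05. Slc1a2 was wholly above its 2-day level at each later day, as were 5.43%, 5.50% and 8.56% of all genes. It had 2772 to 3311 CPM at 2 days and 3606 to 4685 CPM at 5 days, with Log2FC of 0.46 (edgeR FDR 0.13) at 5 days, 0.54 (FDR 0.16) at 8 days and 0.39 (FDR 0.29) at 28 days. Aldh1l1 was wholly below its 2-day level at 28 days, as were 8.83% of all genes, with a Log2FC of −0.69 (SE 0.20, edgeR FDR 0.062) that came to −0.39 (FDR 0.40) without D743. Reactive astrocyte markers moved in these comparisons too, with 15 of 18 as decreased DEGs at 28 days (median Log2FC −1.81), against 2.52% of all genes, 3 at 5 days and 2 at 8 days, against 1.49% and 0.211%. Their summed level was 2019.7 to 6517 CPM in the control mice at 2 days and 576 to 952 CPM at 28 days. Of 12 microglia and macrophage markers 4 were decreased DEGs at 28 days. The part of this difference in the members' levels was not tested. The 3 comparisons share the 2-day controls, and day and batch are partly confounded in them.

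Across the 8 groups, Glul, Gja1, Gjb6, Aldoc and Slc1a2 each had their lowest mean in rAAV-OVA mice at 5 days. For Glul (963 ± 152 CPM) and Gjb6 (33.3 ± 7.5 CPM) the mice of this group did not overlap with those of the group next in order. Single mice of other groups nevertheless lay within its range, the rAAV-control mouse BEC-R385 at 2 days with 1132 CPM of Glul and the rAAV-OVA mouse BEC-B542 at 2 days with 37.5 CPM of Gjb6. Both are of batch 2, whereas every mouse at 5 days is of batch 1, and this order of groups pools the batches. Among the rAAV-control mice at 2 days, the mean of Glul was 1791 CPM in batch 1 and 1275 CPM in batch 2, and among the rAAV-OVA mice at 2 days that of Gjb6 was 67.7 CPM and 42.6 CPM. For Gja1 (159.7 ± 38.0 CPM) they did overlap, through BEC-B542 with 192 CPM. Aqp4 had its highest mean in rAAV-OVA mice at 5 days (443 ± 78 CPM). Sox9 (48.0 ± 7.0 CPM), Slc1a3 (1247 ± 263 CPM) and Gja1 (347 ± 19 CPM) had theirs in rAAV-OVA mice at 28 days, in each case overlapping with the group next in order.

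A ratio of 2 members within a library does not depend on its scaling. The ratio of Aqp4 to Gja1 was 1.95, 2.07, 3.38 and 4.55 in rAAV-OVA mice at 5 days and 0.713, 0.876, 0.973 and 1.01 in the rAAV-control mice. In the other groups its mean lay between 0.837 and 1.24. At 8 days it was 0.895 to 1.31 against 0.764 to 1.24, and at 28 days 0.735 to 1.46 against 0.718 to 1.05, and the groups overlapped at both days. The ratio of Slc1a3 to Slc1a2 behaved differently in time. It was 0.336 to 0.392 in rAAV-OVA mice and 0.193 to 0.254 in rAAV-control mice at 5 days, and 0.273 to 0.423 against 0.182 to 0.214 at 28 days. At 8 days the rAAV-OVA mice had 0.254 to 0.441 and the control mice 0.192 to 0.269, with D720 as the highest control. At 2 days the groups overlapped, with 0.189 to 0.301 in rAAV-OVA mice and 0.218 to 0.349 in rAAV-control mice. The highest control mouse at 2 days thus lay within the 5-day range of the rAAV-OVA mice. These ratios are descriptions and were not tested.

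**Figure D4:**
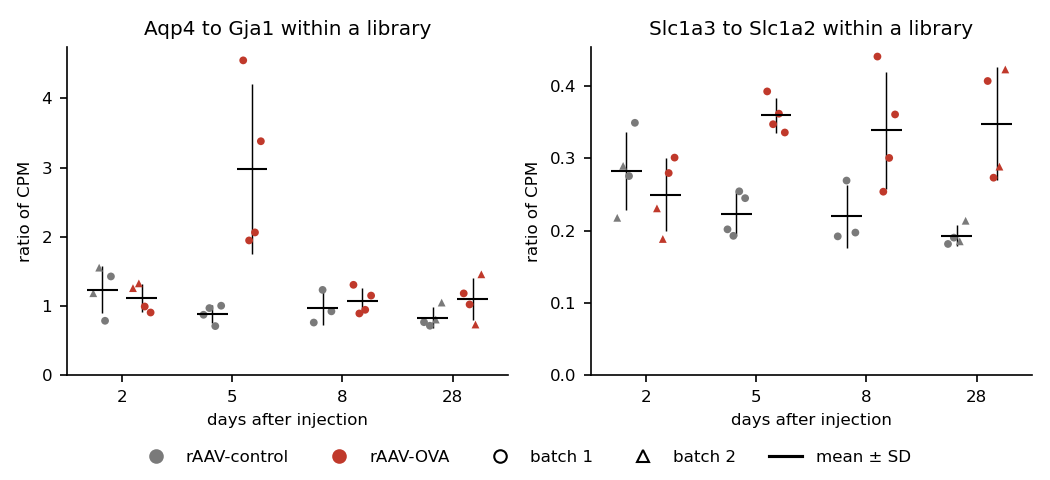
Ratio of CPM within each library (y axis, from 0) of Aqp4 to Gja1 (left) and of Slc1a3 to Slc1a2 (right) by days after injection (x axis), in rAAV-control (grey) and rAAV-OVA (red) mice, with circles for batch 1, triangles for batch 2 and black lines for mean ± SD. Aqp4 to Gja1 reaches 4.55 in a rAAV-OVA mouse at 5 days, and no rAAV-control mouse at 5 days exceeds 1.01.

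Other genes of astrocytes were followed in lists, described by their counts. Over all genes, 15.1% were lower and 17.3% higher by the FDR limit at 5 days, and 10.4% were increased and 4.58% decreased DEGs. At 5 days, 8 of 12 metabolism genes were lower by the FDR limit and 0 higher, with a median Log2FC of −0.43. The 3 DEGs among them were Prodh, the first enzyme of proline breakdown (−1.43, SE 0.17, edgeR FDR 2.6e-06), Ppp1r3g, a glycogen-targeting subunit of protein phosphatase 1 (−1.06), and Phgdh, which starts serine synthesis (−0.67). Of 20 further astrocyte markers 12 were lower and 0 higher, with a median of −0.46, among them Ranbp3l (−1.09), Cldn10 (−1.05), the neurotensin receptor gene Ntsr2 (−1.0) and Mfge8 (−0.73) as DEGs. Of 11 transport genes 4 were lower, of which the zinc transporter gene Slc39a12 was a DEG (−0.90).

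Among 10 genes for connexin and water channel partners at 5 days, Mlc1 (−0.63, SE 0.15, edgeR FDR 0.0021), Hepacam (−0.54) and Dtna (−0.31) were lower. The proteins of Mlc1 and Hepacam sit together at astrocyte junctions, and Dtna encodes dystrobrevin of the complex that anchors aquaporin-4. Of 11 transcription factor genes, Id4 (−0.94) and Lhx2 (−0.77) were decreased DEGs and Glis3 (0.62) was higher by the FDR limit. Over 18 reactive astrocyte markers, 16 were increased DEGs, with a median of 1.62, led by Cxcl10 (4.86), Cd44 (3.06), Timp1 (3.02) and Lcn2 (2.44). Cxcl10, Cd44 and Timp1 are also expressed by other cells of inflamed tissue.

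At 8 days the reactive markers held 3 increased DEGs of 18 (C3 with 3.07, Vim with 1.49 and Aspg with 1.23), with a median Log2FC of 1.0, where 7.52% of all genes were increased DEGs. Of the 18 genes 17 had a positive Log2FC, and the control mouse D720, with 3604 CPM over these markers, lay within the rAAV-OVA range at 8 days (2406 to 4639 CPM). At 28 days 24.5% of all genes were higher and 21.4% lower by the FDR limit, and 14.9% were increased DEGs. The reactive markers then held 14 increased DEGs of 18, with a median of 2.19, led by C3 (6.16), Steap4 (3.08), Cxcl10 (3.03) and Cd44 (2.86). Of the 12 metabolism genes 0 were lower and 2 higher, Phgdh (0.51) and Glud1 (0.22), and of the 20 further markers 6 were higher and 1 lower, with Chrdl1 (1.36) and Clu (0.99) as DEGs. Of the 10 partner genes 4 were higher and 2 lower. Mlc1 (0.68, SE 0.14, edgeR FDR 0.00047) and Gjb2 (1.04), the gene of connexin 26, were increased DEGs, Utrn (0.47) was higher by the FDR limit, and Dmd, the dystrophin gene, was lower (−0.51, SE 0.11). Of the 11 transport genes 1 was higher, the cystine transporter gene Slc7a11 (0.96, SE 0.24, a DEG), and 1 lower, Slc7a10 (−0.34, SE 0.12). The transcription factors split, with Id3 (1.06) among 3 higher genes and Zbtb20 (−0.64) and Nfib (−0.58) among 3 lower ones.

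For the difference between the responses at 28 and 5 days, 7 of 12 metabolism genes and 11 of 20 further markers passed the FDR limit toward higher values, and 0 toward lower ones, against 5.98% and 4.53% of all genes. Toward higher values there also passed 1 of 11 transport genes, 2 of 10 partner genes and 3 of 11 transcription factor genes, and 0 of these lists toward lower values. Prodh differed by 1.48, Id4 by 1.51, Clu by 1.42, Mlc1 by 1.30 and Phgdh by 1.18, each with an FDR under the limit. Among the reactive markers C3 (3.91) was higher and 1 other gene lower. Markers of other cell types also passed toward higher values, 3 of 8 for endothelial cells, 3 of 12 for microglia and macrophages and 1 of 11 for oligodendrocytes. So did 1 of 5 for oligodendrocyte precursors and 1 of 3 for T cells. The median difference was 0.91, 0.82 and 0.64 for the first 3 of these lists, 0.68 for the members and 0.02 over all genes. It was 0.37 for the precursor, 1.57 for the T cell, 1.56 for the ependymal and −0.44 for the neuron markers. The part of these other cells in the members' difference was not tested. At 8 days 0 genes of the metabolism, transport, partner and transcription factor lists passed, and among the 20 further markers 2 were lower, Ranbp3l (−0.59) and Cldn10 (−0.49), where 2.92% of all genes were lower and 10.9% higher by the FDR limit.

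**Figure D5:**
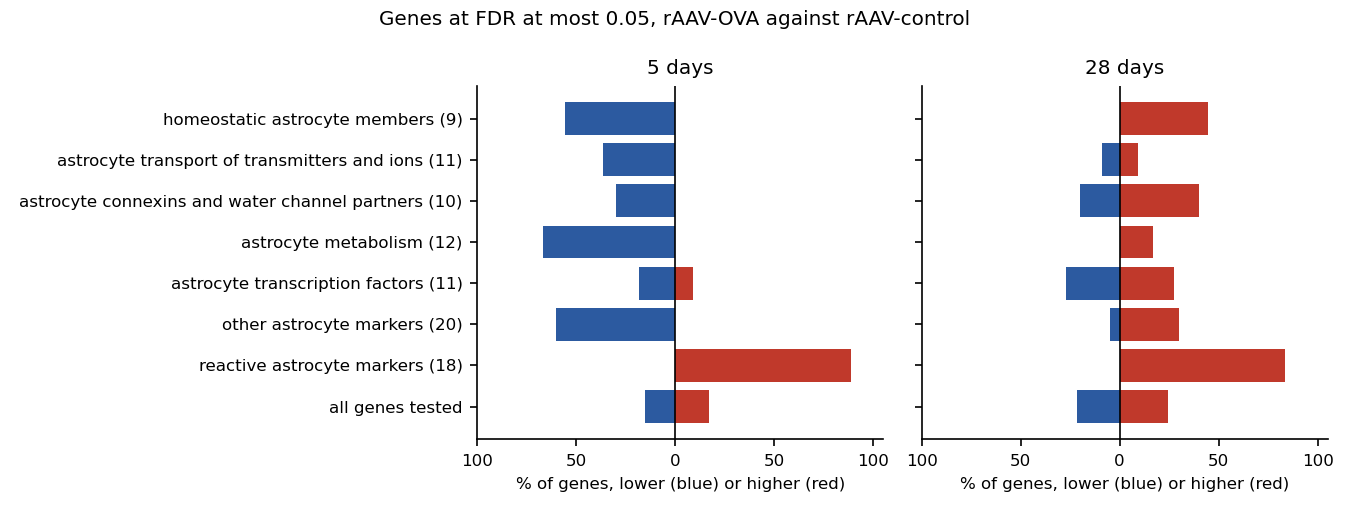
Percent of the genes of each list (x axis) at an FDR of at most 0.05 for rAAV-OVA against rAAV-control, lower to the left in blue and higher to the right in red, at 5 days (left panel) and 28 days (right panel), with the number of genes tested in parentheses and all genes as the last bar. The members, metabolism genes and further markers lean to lower values at 5 days, the reactive markers to higher values at both days.

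Paralogs of the members were tested in the same model. Aldoa, the aldolase gene of most tissues, had a Log2FC of −0.07 at 5 days. Aldh1l2, the mitochondrial counterpart of Aldh1l1, was an increased DEG at 5 days (0.96, SE 0.24, edgeR FDR 0.0029) and 28 days (0.71). Over all genes 10.4% and 14.9% were increased DEGs at these days. The oligodendrocyte connexin gene Gjc3 (−0.78) and the transporter gene Slc1a6 (−0.73) were decreased DEGs at 5 days, when 4.58% of all genes were. Sox8 (−0.64) and the neuronal connexin gene Gjd2 (−0.51) were lower, and Slc1a4 (0.35) higher, by the FDR limit, against 15.1% and 17.3% of all genes. At 28 days Gja4, the connexin gene of vessels, was an increased DEG (1.05). The neuronal glutamate transporter gene Slc1a1 (−0.63) and Gjd2 (−0.61) were then lower by the FDR limit, as were 21.4% of all genes.

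Markers of other cell types moved with the groups. At 5 days the summed CPM of 12 neuron markers ran from 8688 to 10080 in rAAV-OVA mice and from 12198 to 15294 in rAAV-control mice, with 7 genes lower and 1 higher by the FDR limit. The 12 microglia and macrophage markers summed to 1999 to 2068 CPM against 671 to 1226 CPM, with 8 increased DEGs and 1 gene lower by the FDR limit, and of the 11 oligodendrocyte markers 5 were lower. Over all genes 10.4% were increased DEGs at 5 days, and 15.1% were lower and 17.3% higher by the FDR limit. The 3 T cell markers tested of 10 listed were increased DEGs at 5, 8 and 28 days, and summed to 76.0 to 112.1 CPM against 1.16 to 3.36 CPM at 5 days. At 28 days the neuron sum was 4785 to 10316 against 12158 to 13573 CPM, and the microglia sum 792 to 3222 against 527 to 604 CPM, with D844 as the lowest rAAV-OVA mouse of the latter. Of 8 endothelial markers 5 were higher at 28 days, against 24.5% of all genes. No marker was at 0 in any mouse, apart from T cell markers in 2 groups. The part of these other cells in the members' levels was not tested.

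The 9 members together summed to 5297 to 6289 CPM in the rAAV-OVA group and 8299 to 9048 CPM in rAAV-control mice at 5 days, and to 7221 to 9753 against 6985 to 9255 CPM at 28 days. Slc1a2 and Glul make up most of this sum. For Glul, the annotation (GENCODE M21) places 116 exon bases of Teddm2 on the opposite strand, and exons of Aldh1l1 and Slc1a2 overlap antisense genes by 499 and 189 bases. The authors had salmon detect the library type by itself, and the type it found, which decides whether strand was used, is not given in the sources used here. Whether reads of the pairs on opposite strands were kept apart is therefore not known.

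The genes whose pattern over the 31 mice was most like the mean of the 9 standardized members were sought among all genes with a symbol, by root mean square distance of standardized log2 CPM. The closest was Mlc1, with a distance of 0.458, followed by Hepacam (0.477), Ak3 (0.488), Fads2 (0.488), Scg3 (0.500), Cyp4f14 (0.520), Scara3 (0.526), Pon2 (0.543), Phgdh (0.545) and Oplah (0.549). Mlc1 and Hepacam encode partners at astrocyte junctions. The members' own distances ran from 0.623 for Gja1 and 0.655 for Slc1a3 to 1.13 for Sox9 and 1.26 for Aqp4, so that Aqp4 was the member least like the mean of the list. This mean pattern pools the batches. In each group with mice of both batches, those of batch 2 had the lower mean of standardized members. For rAAV-OVA mice at 2 days it was −0.69 and −1.05 in batch 2, against 0.07 and −0.11 in batch 1. The part of batch in the likeness was not tested.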

How the data were processed

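RNA of the left hippocampus from 31 mice was analysed, each mouse a library. The authors trimmed reads with fastp, quantified them with salmon (version 1.8.0 in the submitters' processing notes) on GENCODE M29 and summarized them by tximeta, and they deposited estimated counts (expected counts, whole numbers, not normalized) after a filter (15 or more counts in 15 or more mice). Both deposited tables held 15648 genes and 0 cells differed. Groups, time points and batches follow the labels.

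edgeR 4.0.16 (R 4.3.3) was run with TMM, robust dispersions, 8 groups and 2 surrogate variables from sva 3.50.0, with FDR adjusted over all genes by the Benjamini-Hochberg method, and checked on simulated data. Alternatives used DESeq2 1.42.0, ashr 2.2.63, limma 3.58.1, other scaling, covariates, filters, samples, and the exclusion of single mice. The members and lists were chosen with earlier results of these data known. All members were named, from each list at most the 4 called genes with the largest absolute Log2FC per day, paralogs by value (not all are reported here), and the 10 genes of most similar pattern.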

Additional observations from a re-analysis of the deposited data

Results flagged for a closer look

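For 5 members the response to rAAV-OVA differed between 28 and 5 days by a test of the difference itself (edgeR's quasi-likelihood interaction), where 6.51% of all genes were DEGs and 4.19% toward higher values. Relative to rAAV-control, Gja1 was 1.26 higher at 28 days than at 5 days on the log2 scale, Glul 0.93, Sox9 0.74, Slc1a3 0.68 and Aldoc 0.67. In each of these 5 genes the direction was toward higher values at 28 days. At 5 days Gja1, Glul and Aldoc fell and Slc1a3 and Sox9 were near 0. At 28 days Gja1, Slc1a3 and Sox9 were higher, and Glul and Aldoc were near 0. Leaving out D661, D843 or D845 reduced the number of members called from 5 to 2.

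In 63 groups of 4 mice, 1 group per member and condition, 0 had a mouse far enough from the others to stand out by Dixon's test, where chance gives about 1 in 20.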

How the results depend on the processing

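No paired analysis was possible because replicate numbers here follow accession order and mark single mice. Mice of different groups share no label but batch, which holds several mice of a group. Batch was not in the main model and was fitted as a covariate only in alternatives. Of the values for single members, 0 changed direction with a call. The number of members called at 5 days (2) became 5 without surrogate variables, with the batch label in their place, or without a limit on Log2FC, and 4 with the mice of that day only or batch 1 alone, with 2 to 4 when a mouse was left out (4 without D726 or D755). At 28 days (2) it was 4 without a limit on Log2FC, 0 in batch 2 alone, and 1 with the batch label beside the surrogate variables, at least 15 counts in every mouse, limma's voom, ashr shrinkage, or without D720, D743 and D844, an alternative chosen after seeing the data. With a mouse left out it was 1 to 3, and 1 without D661, D843, D706 or D845. For the difference between 28 and 5 days (5 members) it was 3 with at least 15 counts in every mouse, 2 with total counts, without surrogate variables, with the batch label in their place or with ashr shrinkage, 1 with the mice of both days only and 0 in batch 1 alone, with 2 to 5 when a mouse was left out. For the difference between 28 and 8 days (0) it was 1, Sox9, in DESeq2's Wald test with or without ashr, and 0 to 1 with a mouse left out (1 without D696 or D667). For control mice at 28 against 2 days (0 members) it was 1, Aldh1l1, with DESeq2's size factors, total counts, no surrogate variables, the batch label in place of or beside them, or DESeq2's Wald test, and 0 to 1 with a mouse left out (1 without D740 or BEC-B544). At 2 and 8 days, between 8 and 5 days, and for control mice at 5 and 8 days the count remained within its range of 0 to 0 with a mouse left out. The cause of these shifts was not tested.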

Other observations

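Ependymal markers, of the cells that line the ventricle, varied between the rAAV-OVA mice at 28 days. Their 6 genes summed to 168.1 CPM in D844 and 102.6 CPM in D845, both of batch 2, and to 47.3 CPM in D661 and 31.2 CPM in D667, both of batch 1. The rAAV-control mice had 14.6 to 50.6 CPM, a range that holds both mice of batch 1. Of the 6 genes 1 was an increased DEG, against 14.9% of all genes, and all 6 had a positive Log2FC. D844 was also the rAAV-OVA mouse with the lowest T cell and microglia sums of its group.

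The ratio of Sox9 to Glul within a library was 0.0286 to 0.0538 in rAAV-OVA mice and 0.0181 to 0.0216 in rAAV-control mice at 5 days, and its mean was 0.0275 against 0.0154 at 28 days. The ratio of Gjb6 to Gja1 was 0.187 to 0.235 against 0.155 to 0.192 at 5 days. These ratios were not tested.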
